A study of Mus musculus with 34 samples.

Results

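The data described here are the 6 home cage RiboTag libraries of parvalbumin (PV) interneurons that bear on the loss of Nr4a1: 3 from mice with a floxed Nr4a1 gene and 3 from mice without it, out of 34 libraries in the series. They were chosen by their titles and genotype labels within 1 batch (batch 3, as numbered in the titles), and every gene of that batch's table was considered. In RiboTag mice, Cre recombinase switches on an HA-tagged form of the ribosomal protein Rpl22, and an antibody to HA then pulls down ribosomes with the mRNA they carry. The study set out to profile interneurons during associative learning and interneurons that lack Nr4a1.

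The first group (Nr4a1 cKO, n = 3) came from mice of genotype PV:Cre/Nr4a1-f/f/Ribotag, and the second (home cage, n = 3) from mice of genotype PV:Cre/Ribotag. All were C57/BL6 mice at postnatal day 60 kept in the home cage, and all carried the Cre driver and the RiboTag allele. One more group of the same batch (CFC, n = 3) had the genotype of the home cage mice and went through contextual fear conditioning, which pairs a context with foot shocks. Cre followed the Pvalb gene, so deletion and tag were both limited to cells that use this driver, and no library of RNA before the pull-down was used here. The tissue label reads cortex and hippocampus, and the extraction protocol names cortices only. Nothing in the labels ties libraries to separate mice, so the p-values speak for the spread among these samples, part of which may be technical.

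Nr4a1 belongs to a family of orphan nuclear receptors with Nr4a2 and Nr4a3. These receptors are induced quickly by neuronal activity and bind DNA as transcription factors without a known hormone. PV interneurons are fast-spiking inhibitory cells with a high demand for energy. ATF4, a transcription factor that many of the genes below are known to answer to, is made when amino acids run short or when eIF2alpha is phosphorylated. It drives genes for serine and glycine synthesis, mitochondrial one-carbon metabolism, amino acid uptake and the charging of tRNAs.

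Libraries held 21148427 to 27282912 counts in the cKO group and 10096035 to 20353741 in the home cage group. Home cage replicate 3 stood apart: it was the shallowest, gave 4.60% of its counts to the rRNA gene CT010467.1 where the other PV libraries gave 0.771% to 2.45%, and had the lowest mean correlation with the other libraries (0.955, against 0.970 to 0.979). Summed over 26 PV interneuron markers, levels ran from 8269 to 10846 CPM (counts relative to the library total, TMM-scaled) in cKO and from 10187 to 10380 CPM in home cage libraries. Without Pvalb, which was high in 2 cKO libraries, the other 25 summed to 9793, 9194 and 8113 CPM in cKO libraries. In home cage libraries they summed to 10213, 10190 and 10024 CPM, above every cKO library. The CFC libraries, at 10945, 10877 and 9718 CPM, overlapped the cKO values. Of all single genes tested, 9.02% lay lower in every cKO than in every home cage library. Summed over 18 markers of somatostatin (SST) interneurons, levels ran from 1191 to 1626 CPM in cKO and from 982 to 1445 CPM in home cage libraries. SST libraries of the series had 9164 to 11129 CPM over the same 18 markers in their cKO group and 12669 to 13850 CPM in their home cage group. The Y-linked gene Ddx3y was above 20 CPM in 1 of 3 cKO and 2 of 3 home cage libraries, so the mix of sexes behind the groups was not the same. Its part in the results was not tested.

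Nr4a1 itself (chromosome 15, 101254269 to 101274795, plus strand, GRCm38) had 6.68, 16.5 and 7.65 CPM in the 3 cKO libraries, 56.9, 56.1 and 64.3 CPM in the CFC libraries and 5.07, 7.43 and 11.7 CPM in the home cage libraries. The cKO and home cage values overlapped, and both lay far under the CFC values. The log2 difference of cKO over home cage was 0.38 ± 0.35 (SE; adjusted p = 0.592, edgeR), and it was -0.14 without cKO replicate 2. Counts were made over the whole gene, exons outside a floxed part included, so these levels do not check the deletion, and the text speaks of libraries labelled Nr4a1 cKO in that sense. The other receptors of the family did not differ beyond their spread: Nr4a2 had a log2 fold change of 0.03 ± 0.48 (adjusted p = 0.981) and Nr4a3 of -0.65 ± 0.52 (adjusted p = 0.52). Neither value keeps its sign under every setting tried. Across 12 Nr4a receptors and partners, which include the retinoid X receptors Rxra, Rxrb and Rxrg, 0 were called and 0 had an unadjusted p under 0.05.

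A small set of genes separated the groups. Of 15150 genes tested, 21 passed an adjusted p of 0.05 (0.139%), 15 higher (0.099%) and 6 lower (0.0396%) in the libraries labelled cKO. An unadjusted p under 0.05 was found for 2699 genes, against 758 expected. Of the 15 higher genes, 10 belong to a list of 22 genes of the ATF4 response and serine synthesis, and 2 more are tRNA synthetases. The number of calls depended on single libraries: 7 genes were called without cKO replicate 1, 9 without home cage replicate 2, 1224 without home cage replicate 1 and 26 (0.166%) without home cage replicate 3. Those 26 were 21 higher (0.134%) and 5 lower (0.0319%) genes of 15659 tested and included 18 of the 21. Groups that did not overlap were common by themselves: all 3 cKO libraries lay above all 3 home cage libraries in 9.37% of genes tested and below them in 9.02%. With library totals in place of TMM scaling, which moved the median log2 fold change of all genes to 0.15, against 0.04, the split was 19 higher and 4 lower. The plot of all tested genes shows the 21 against the rest.

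**Figure D1:**
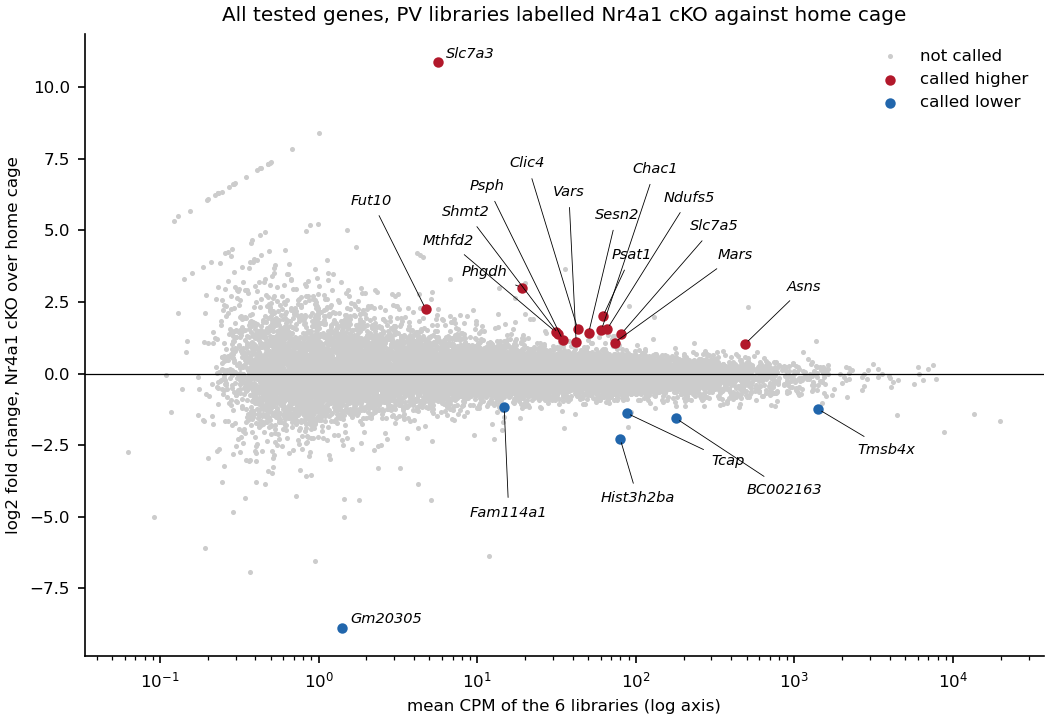
Log2 fold change of Nr4a1 cKO over home cage PV libraries for the 15150 genes tested, against the mean CPM of the 6 libraries on a log axis. Red points are the 15 genes called higher and blue points the 6 called lower; the fitted values of Slc7a3 and Gm20305, which have a group at 0, depend on the fit and are not bounds.

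The enzymes that make serine rose together. Phgdh, Psat1 and Psph carry out the successive steps from the glycolytic intermediate 3-phosphoglycerate to serine, and all 3 rose. Phgdh (chromosome 3, 98313170 to 98339990, minus strand) had 34.5, 37.9 and 30.2 CPM in cKO libraries, against 3.41, 5.30 and 4.15 CPM in home cage libraries. The groups were far apart, at 3.00 ± 0.28 on the log2 scale (SE; adjusted p = 0.00123). Psat1 (chromosome 19, 15904678 to 15947337, minus strand) had 96.5, 108 and 93.1 CPM in cKO libraries and 28.3, 22.9 and 23.1 CPM in home cage libraries, a log2 fold change of 2.00 ± 0.17 (adjusted p = 0.00077), the smallest p of all genes tested. Psph (chromosome 5, 129765558 to 129787449, minus strand) had 51.7, 46.9 and 45.8 CPM against 23.7, 20.7 and 19.5 CPM, again without overlap. Its log2 fold change was 1.17 ± 0.16 (adjusted p = 0.0139).

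Mitochondrial enzymes that pass the carbon of serine on to folate rose with them. Shmt2, which splits serine into glycine and a one-carbon unit, had 50.7, 46.7 and 43.7 CPM in cKO and 18.8, 18.4 and 16.8 CPM in home cage libraries (log2 fold change 1.39 ± 0.18, adjusted p = 0.00898). Mthfd2, which oxidises that unit in mitochondria, had 46.3, 49.4 and 41.9 CPM in cKO and 16.8, 18.6 and 14.7 CPM in home cage libraries (1.45 ± 0.17, adjusted p = 0.0055). Every cKO library lay above every home cage library by more than the spread within either group. Aldh1l2 and Mthfd1l, further enzymes of mitochondrial folate metabolism, had positive values that missed the threshold. Aldh1l2 was low, at 3.67, 2.83 and 2.34 CPM in cKO and 0.146, 0.0688 and 0 CPM in home cage libraries (adjusted p = 0.0904), and Mthfd1l had a log2 fold change of 0.96 ± 0.30 (adjusted p = 0.168).

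Carriers that bring amino acids into the cell were also among the called genes. Slc7a3, a carrier of arginine and lysine (chromosome X, 101079210 to 101086020, minus strand), had 14.5, 9.60 and 9.67 CPM in the cKO libraries and 0 counts in all 3 home cage libraries. With a floor of 3 counts over the home cage group it was at least 169.5-fold higher in cKO libraries (adjusted p = 0.0162), and CFC libraries had 0.683, 0 and 0.454 CPM. Slc7a5, the light chain of a transporter of large neutral amino acids such as leucine, had 122, 110 and 122 CPM in cKO and 43.5, 58.6 and 31.8 CPM in home cage libraries (1.39 ± 0.20, adjusted p = 0.0162). Its heavy chain Slc3a2 had 241, 269 and 234 CPM in cKO and 155, 178 and 166 CPM in home cage libraries, which did not overlap, but the log2 fold change of 0.58 ± 0.12 missed the threshold (adjusted p = 0.0975). Slc7a1, another carrier of cationic amino acids, had 0.87 ± 0.17 (adjusted p = 0.0904). The cystine carrier Slc7a11 had the opposite sign, at 13.8, 7.89 and 16.8 CPM in cKO and 17.9, 22.0 and 9.17 CPM in home cage libraries (-0.36 ± 0.37, adjusted p = 0.635).

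Other classical ATF4 targets rose as well. Asns, asparagine synthetase, was the most abundant of the called genes that were higher, with 664, 709 and 603 CPM in cKO and 333, 345 and 283 CPM in home cage libraries (log2 fold change 1.04 ± 0.12, adjusted p = 0.0055). Chac1, which breaks down glutathione, had 87.4, 91.7 and 90.8 CPM in cKO and 36.8, 33.2 and 23.9 CPM in home cage libraries (1.52 ± 0.17, adjusted p = 0.0055). Sesn2, a leucine sensor that restrains mTORC1, had 83.1, 82.1 and 55.5 CPM in cKO and 31.3, 29.9 and 20.7 CPM in home cage libraries (1.42 ± 0.20, adjusted p = 0.0139). In each of the 3 genes the lowest cKO library stood above the highest home cage library. The plot by library shows these genes beside the CFC libraries.

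**Figure D2:**
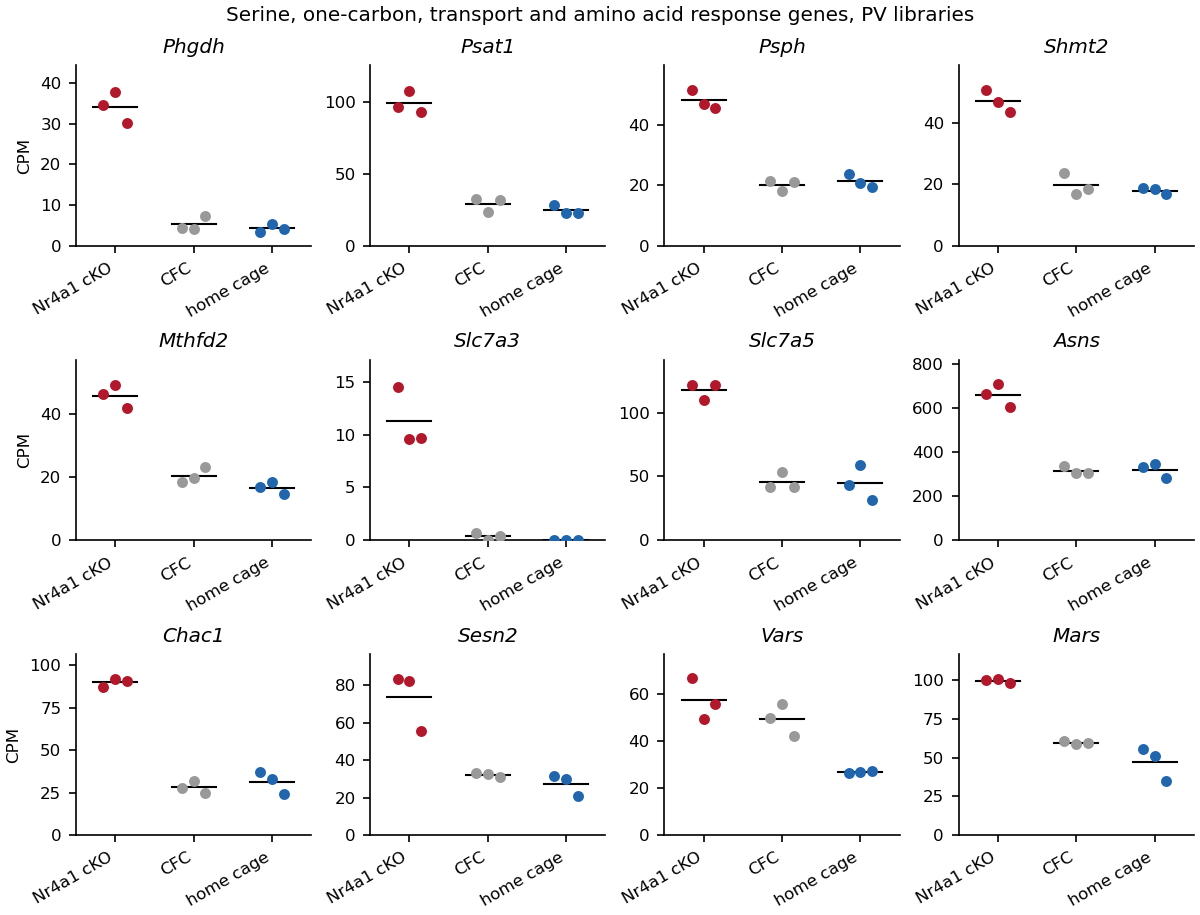
Level in CPM (linear axes from 0) of 12 called genes of serine synthesis, one-carbon metabolism, amino acid transport, the amino acid response and tRNA charging, in the 3 PV libraries of each group, with a line at the group mean. The cKO points lie above all home cage points in each panel; only in Vars do the CFC points reach the cKO points.

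Atf4 itself had 216, 259 and 212 CPM in cKO libraries and 102, 109 and 162 CPM in home cage libraries. All cKO values were higher, but with a log2 fold change of 0.88 ± 0.19 the gene missed the threshold (adjusted p = 0.116). ATF4 is mainly set at the level of translation, which mRNA levels do not show. Nupr1, a stress-induced chromatin protein, had 15.1, 20.7 and 13.1 CPM in cKO and 3.56, 5.92 and 6.00 CPM in home cage libraries (1.67 ± 0.34, adjusted p = 0.0975). Ddit3, which encodes the transcription factor CHOP, had 59.7, 70.3 and 66.0 CPM in cKO and 54.2, 63.8 and 56.1 CPM in home cage libraries (0.17 ± 0.13, adjusted p = 0.502), and the stress gene Ddit4 had a log2 fold change of -0.10 ± 0.32 (adjusted p = 0.896). Trib3, a pseudokinase that feeds back on ATF4, was low, with 2.59, 1.62 and 1.65 CPM in cKO and 0, 0 and 2.51 CPM in home cage libraries, which overlapped.

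In all, 20 of the 22 tested members of the ATF4 and serine list had positive values, 10 were called higher and 0 lower, where 0.099% of all genes tested were called higher. The median log2 fold change of the list was 1.32, against 0.04 over all genes tested. The median was also 1.32 with Slc7a3 at its bound. Without home cage replicate 3 the median was 1.16 and 11 members were called. Without cKO replicate 1 only 5 were called and without home cage replicate 2 only 6, with medians of 1.16 in each case. This list was drawn up with earlier results of these data known, so its count is a description.

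Of 20 cytosolic tRNA synthetases, which charge tRNAs with their amino acids, 18 had positive values and 2 were called higher (0.099% of all genes were), with a median log2 fold change of 0.59. Mars, for methionine, had 100, 101 and 98.3 CPM in cKO libraries and 55.4, 50.9 and 34.6 CPM in home cage libraries (1.08 ± 0.16, adjusted p = 0.0231). Vars, for valine, had 66.8, 49.4 and 55.9 CPM in cKO and 26.4, 26.9 and 27.1 CPM in home cage libraries (1.10 ± 0.16, adjusted p = 0.0202), while the CFC libraries, at 50.0, 56.0 and 42.1 CPM, overlapped the cKO values. Cars for cysteine (1.53 ± 0.26, adjusted p = 0.0534), Yars for tyrosine (0.67 ± 0.12, adjusted p = 0.0534) and Nars for asparagine (0.54 ± 0.11, adjusted p = 0.0904) just missed. Hars for histidine (-0.18) and Farsa for phenylalanine (-0.07) had the negative values. Neither Mars nor Vars was called without cKO replicate 1, without cKO replicate 3, without home cage replicate 2 or without CFC replicate 1, whereas 12 of the 20 were called without home cage replicate 1, a fit that called 588 genes higher in all.

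Promoters of these genes were searched for the letters that ATF4 is known to bind with C/EBP partners, because the members of the list moved together. The motif searched was TGATGNAA on both strands, in windows from 250 bases before to 50 bases after each start in RefSeq promoters of GRCm38.p6. It was present in 6 of the 19 matched promoters of the ATF4 and serine list (31.6%), in 5 of 13 of the tRNA synthetases (38.5%), in 2 of 12 of the genes called higher (16.7%) and in 2.63% of 11222 genes tested. Both lists hold many genes already known to answer to ATF4 and were drawn up with earlier results known. Their shares are therefore a description and no test of ATF4. The matches below, in capitals, belong to Asns and Chac1, which were called, to Nupr1, Gars and Tars, which missed the threshold with positive values, and to Slc7a11, which had a negative value despite 2 matches.
Asns, chr6:7693205-7693252, minus strand: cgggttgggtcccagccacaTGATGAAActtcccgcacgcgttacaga
Chac1, chr2:119351029-119351076, plus strand: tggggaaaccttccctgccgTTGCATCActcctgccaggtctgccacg
Nupr1, chr7:126625553-126625600, minus strand: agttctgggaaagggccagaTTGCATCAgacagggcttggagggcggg
Gars, chr6:55037951-55037998, plus strand: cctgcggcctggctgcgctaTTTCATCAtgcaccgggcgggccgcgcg
Tars, chr15:11399646-11399693, minus strand: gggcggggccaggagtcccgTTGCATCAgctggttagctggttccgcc
Slc7a11, chr3:50443633-50443699, minus strand: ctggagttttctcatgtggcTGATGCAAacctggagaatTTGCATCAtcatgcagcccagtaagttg
The match begins 23 bases before the start site in Asns and 193 bases before it in Chac1. Phgdh and Psat1 were searched and do not hold these letters in the window, which says nothing of the factor. The letters of the site that Nr4a1 monomers are known to bind, AAAGGTCA on both strands, were present in 0 of 12 promoters of genes called higher, in 0 of 3 of genes called lower and in 1.17% of genes tested. With so low a share, 0 among so few promoters was likely in any case, so nothing follows from it about Nr4a1. A match is a run of letters and not a proven site.

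The other 3 genes called higher have no place in these pathways. Clic4, a chloride intracellular channel protein, had 65.8, 56.3 and 70.6 CPM in cKO libraries and 22.3, 17.8 and 25.3 CPM in home cage libraries (1.56 ± 0.18, adjusted p = 0.0055). Fut10, a fucosyltransferase, had 8.25, 7.11 and 8.11 CPM in cKO and 1.95, 0.826 and 2.18 CPM in home cage libraries (2.25 ± 0.36, adjusted p = 0.0297), and the CFC libraries, at 8.43, 10.0 and 8.71 CPM, lay above the cKO values.

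Ndufs5, an accessory subunit of respiratory complex I (chromosome 4, 123712710 to 123718202, minus strand), had 74.3, 110 and 112 CPM in cKO and 23.8, 29.9 and 47.1 CPM in home cage libraries (1.56 ± 0.24, adjusted p = 0.0231). It cannot be read apart from BC002163 (chromosome 16, 42955631 to 42955949, plus strand), a processed pseudogene that matches the Ndufs5 transcript at 317 of 319 bases (99.4%) and was called lower. BC002163 had 67.7, 98.2 and 106 CPM in cKO and 188, 266 and 350 CPM in home cage libraries (-1.56 ± 0.22, adjusted p = 0.0139). Of the counts of both features together, Ndufs5 held 52.3%, 52.8% and 51.3% in cKO libraries, 10.9%, 11.2% and 11.1% in CFC libraries and 11.2%, 10.1% and 11.9% in home cage libraries. The split between the copies was thus nearly constant within a genotype and very different between genotypes. Summed, the features had 142, 208 and 218 CPM in cKO and 212, 296 and 398 CPM in home cage libraries, and the sum differed by -0.67 ± 0.21 on the log2 scale, which did not pass (adjusted p = 0.174).

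Besides BC002163, 5 genes fell. Tmsb4x, the X-linked gene for the actin-binding peptide thymosin beta 4, was the most abundant, with 816, 790 and 914 CPM in cKO libraries and 1776, 1580 and 2587 CPM in home cage libraries (-1.24 ± 0.17, adjusted p = 0.0134). Tcap, known for the titin cap protein of muscle, had 32.8, 67.6 and 45.4 CPM in cKO and 103, 129 and 147 CPM in home cage libraries (-1.38 ± 0.23, adjusted p = 0.0403). Fam114a1 had 8.57, 10.3 and 8.34 CPM in cKO and 23.0, 17.1 and 21.5 CPM in home cage libraries (-1.18 ± 0.20, adjusted p = 0.0433). The groups did not overlap in any of these genes.

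Hist3h2ba, a histone H2B gene, had 17.7, 38.4 and 25.9 CPM in cKO libraries and 102, 168 and 126 CPM in home cage libraries (-2.27 ± 0.35, adjusted p = 0.0266). The CFC libraries had 70.4, 34.6 and 28.9 CPM and overlapped the cKO values. Gm20305, a processed pseudogene on chromosome 1 (180854282 to 180854458, minus strand), had 0 counts in all 3 cKO libraries and 2.83, 1.44 and 4.15 CPM in home cage libraries. With a floor of 3 counts over the cKO group it was at least 65.7-fold lower in cKO libraries (adjusted p = 0.0139).

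Compared with the CFC libraries, which carry the same intact Nr4a1 gene as home cage libraries, 13 of the 15 higher genes lay above all CFC values (all but Vars and Fut10), and 5 of the 6 lower genes lay below them (all but Hist3h2ba). The share of all genes tested that did so was not counted. Because the 21 were called from the same cKO libraries, these counts are a description and no second test. When the cKO libraries were compared with home cage and CFC libraries together, 28 genes were called (0.185%), 21 higher (0.139%) and 7 lower (0.0462%), and 18 of the 21 were among them. Vars, Hist3h2ba and Fut10 were not. CFC against home cage shares the home cage libraries, and there edgeR called 0 of 15150 genes (2834 with an unadjusted p under 0.05, 745 called by DESeq2). In that comparison Phgdh had a log2 fold change of 0.31, Psat1 of 0.24, Asns of -0.03 and Chac1 of -0.17, and the median of the ATF4 and serine list was -0.02. Other genes had larger values there with the sign they have in cKO: Fut10 2.46, Vars 0.88, Hist3h2ba -1.56, Gm20305 -1.49, BC002163 -0.72 and Tmsb4x -0.41. Ndufs5, at -0.72, had the opposite sign. Tcap (-0.25) and Fam114a1 (-0.04) were also negative, as were all 6 lower genes, and none of these values was called.

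Single libraries and the choice of libraries fitted together decided many of the remaining calls. A fit of the 6 compared libraries alone called 10 genes, 9 of them among the 21, with 7 members of the ATF4 and serine list and 0 tRNA synthetases. It lost Tmsb4x, Psph, Gm20305, Sesn2, BC002163, Slc7a5, Vars, Mars, Ndufs5, Fut10, Tcap and Fam114a1. Psat1, Phgdh, Clic4, Chac1, Asns and Mthfd2 were called in all 18 alternatives. Shmt2, Psph, Sesn2, Slc7a3 and BC002163 missed the threshold without cKO replicate 1 and without home cage replicate 2, Tmsb4x and Gm20305 without cKO replicate 1, and Slc7a5 without cKO replicate 1 or 3, with the sign kept. Of 9 fits that each left out 1 library, Vars and Hist3h2ba were called in 5, Ndufs5 in 3, Mars, Fut10 and Tcap in 2 and Fam114a1 in 1. Adjusted p-values for these genes reached 0.229.

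Just outside the threshold, the 10 genes per direction with the smallest p that had at least 5 CPM on average and groups that did not overlap had adjusted p-values from 0.0534 to 0.0904. Those with positive values were Cars, Pgm2, Yars, Hs6st2, Grm3, Nars, Tgfbrap1, Eps15, Pycr1 and Slc7a1. Pycr1, which completes proline synthesis, had 10.7, 12.8 and 10.4 CPM in cKO and 4.73, 2.55 and 1.53 CPM in home cage libraries (1.91 ± 0.38). Those with negative values were Khk, Gng3, Nuak1, Mllt11, Jun, Nipsnap1, Fahd2a, Klhl40, Tmem41a and D8Ertd738e. Jun, an AP-1 transcription factor induced by activity, had 31.4, 31.1 and 36.9 CPM in cKO libraries, against 59.8, 58.2 and 47.4 CPM in home cage libraries (-0.74 ± 0.14, adjusted p = 0.0904). CFC libraries had 69.4, 70.1 and 75.9 CPM of Jun, and Jun was called against home cage and CFC together at -0.93.

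Pvalb encodes parvalbumin, a calcium buffer, and had 1053, 1346 and 156 CPM in the cKO libraries and 155, 190 and 163 CPM in the home cage libraries. Replicates 1 and 2 of the cKO group stood alone, and cKO replicate 3 was at the level of the home cage libraries and of the CFC libraries (179, 143 and 166 CPM). With this split the log2 fold change of 2.33 ± 0.61 was not called (adjusted p = 0.151); without cKO replicate 3 it was 2.83 (adjusted p = 2.11e-05). Pvalb lies on chromosome 15, as does Nr4a1, 23.1 Mb from it. Of the other 25 PV markers 0 were called, 13 had positive and 12 negative values and the median was 0.003. An unadjusted p under 0.05 was found for 1 of them with a positive and 7 with a negative value, and 6 lay below all home cage libraries in every cKO library, against 1 above them. Of all 15150 genes tested, 1328 had such a p with a positive and 1371 with a negative value. Below all home cage libraries lay 9.02% of them, and above 9.37%. With Pvalb the median of the list was 0.07. The synaptic calcium sensor Syt2 had 676, 466 and 423 CPM in cKO and 478, 534 and 550 CPM in home cage libraries, and the potassium channel gene Kcnc1 had 633, 648 and 586 against 651, 816 and 860 CPM. Sst had 123, 135 and 386 CPM in cKO and 125, 215 and 464 CPM in home cage libraries (-0.32 ± 0.54, adjusted p = 0.788). Rpl22, which carries the RiboTag, had -0.32 ± 0.20 (adjusted p = 0.408).

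**Figure D3:**
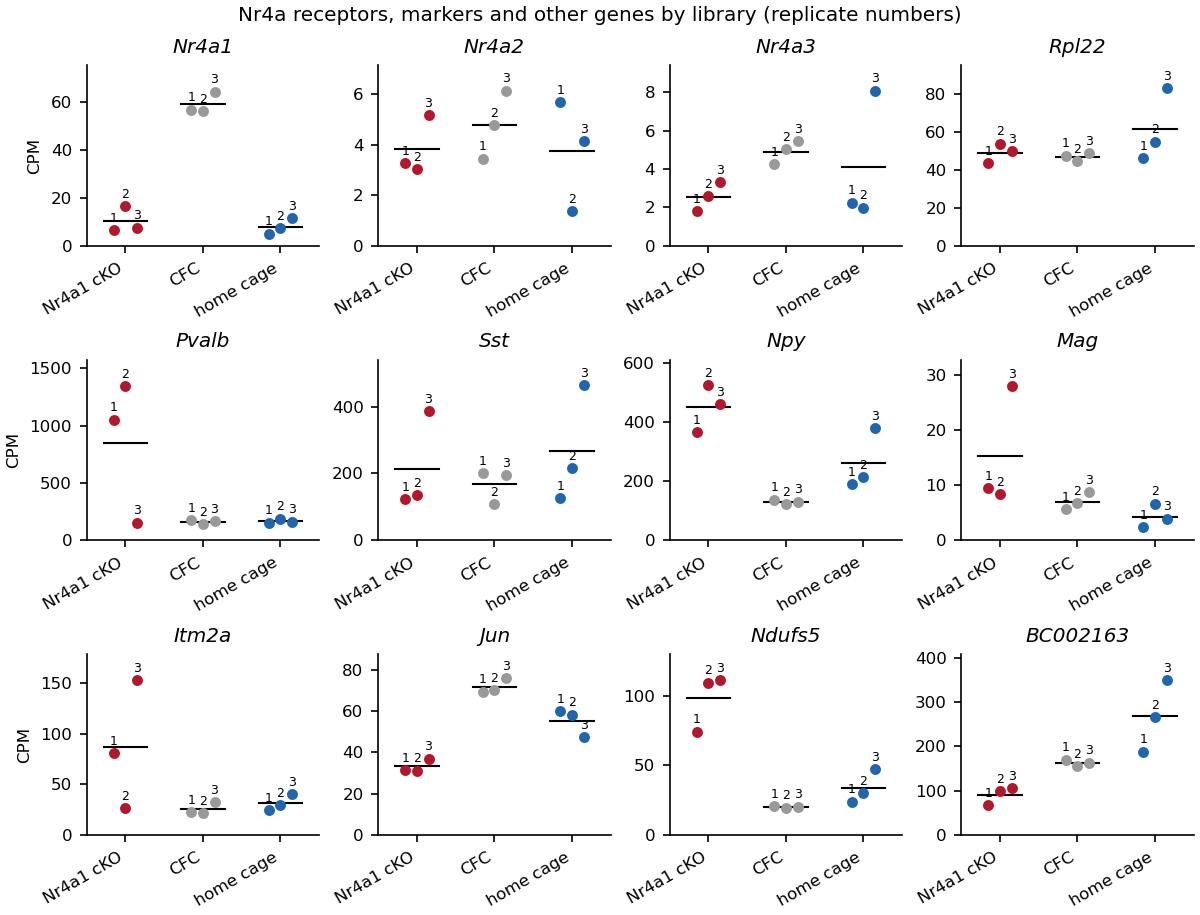
Level in CPM (linear axes from 0) of the Nr4a receptors, Rpl22, markers and further genes in the 3 PV libraries of each group, with replicate numbers and a line at the group mean. Nr4a1 is high only in CFC libraries, Pvalb is high only in cKO replicates 1 and 2, and the changes of Ndufs5 and BC002163 mirror each other.

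Markers of other cells mostly had positive values in the libraries labelled cKO, without passing the main test. Of 18 oligodendrocyte lineage markers 16 had positive values (median log2 fold change 0.80, 0 called), of 18 astrocyte markers 16 (0.45, 0 called), of 15 microglia markers 10 (0.49, 0 called) and of 21 vascular and mural markers 17 (1.05, 0 called). In that order, 7, 6, 0 and 9 had an unadjusted p under 0.05 with a positive value, beside 1328 of 15150 genes tested. With a negative value there were 0, 0, 0 and 1, beside 1371. DESeq2 called 2, 2, 0 and 1 higher and 0 lower, of 669 genes called in all. A fit without a filter on low counts called 6, 3, 0 and 11 higher and 0, 0, 0 and 2 lower, of 1072 in either direction. How many genes that fit tested is not given here, so its counts carry no share over all genes. Summed over the list, oligodendrocyte markers had 570, 447 and 1042 CPM in cKO and 244, 369 and 440 CPM in home cage libraries. Microglia markers had 70.2, 66.4 and 91.9 CPM in cKO and 57.4, 62.8 and 65.7 CPM in home cage libraries. In both lists cKO replicate 3 was the highest, and cKO replicate 2 lay just above home cage replicate 3. The vascular sum did not follow its median: it was 1607, 1360 and 2333 CPM in cKO and 1637, 1860 and 1649 CPM in home cage libraries, so that only cKO replicate 3 was high. No marker of these lists was at 0 in all 9 PV libraries. Mag, a myelin glycoprotein, had 9.47, 8.35 and 28 CPM in cKO and 2.39, 6.67 and 3.93 CPM in home cage libraries (1.82 ± 0.49, adjusted p = 0.143). Itm2a, expressed in brain endothelium, had 80.8, 26.6 and 153 CPM in cKO and 24.8, 29.3 and 40.0 CPM in home cage libraries, so that cKO replicates 1 and 3 were high and replicate 2 was not. Phgdh and Psat1 are known to be abundant in astrocytes. Astrocyte markers summed to 965, 912 and 1288 CPM in cKO replicates 1 to 3 and to 880, 1016 and 902 CPM in home cage replicates 1 to 3. Npy, a neuropeptide gene of interneurons, had 365, 524 and 461 CPM in cKO and 191, 215 and 379 CPM in home cage libraries, which overlapped (0.78 ± 0.23, adjusted p = 0.154). Markers of interneurons other than PV and SST cells, a list without Npy, summed to 287, 377 and 407 CPM in cKO libraries. In home cage libraries they summed to 320, 397 and 477 CPM, which overlapped. Of 12 tested, 9 had positive values (median 0.40, 0 called). The part of other cells in the called genes was not tested. In such bulk samples, fewer cells of a type and less RNA per cell cannot be told apart.

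Transcripts of the energy and protein-making machinery leaned the other way. Of 76 subunits of oxidative phosphorylation encoded in the nucleus, 71 were negative, with a median log2 fold change of -0.56, and 0 were called lower, the 1 call being Ndufs5. Of 78 cytosolic ribosomal proteins 77 had negative values (median -0.55, 0 called). Uqcr10, a subunit of complex III, had 335, 479 and 561 CPM in cKO and 579, 1008 and 1335 CPM in home cage libraries (-1.09, adjusted p = 0.128), and the ribosomal protein gene Rps21 had 60.4, 88.3 and 91.9 CPM in cKO and 94.8, 135 and 320 CPM in home cage libraries (-1.19 ± 0.35, adjusted p = 0.156). Home cage replicate 3 was the highest library in both genes, and without it the list medians were -0.34 and -0.21. These counts depended on the fit: DESeq2 called 27 of the oxidative phosphorylation and 5 of the ribosomal genes lower, a fit without a filter on low counts 43 and 35, and edgeR without home cage replicate 1 called 50 and 43. Over all genes the same fits called 669, 1072 and 1224 in either direction, which the closing section splits into higher and lower. Of 9 tested mitochondrially encoded genes 7 had positive values (median 0.42, 0 called), and the median was 0.96 without home cage replicate 3. The 15 genes of that list summed to 1412, 1614 and 1892 CPM in cKO and to 1007, 723 and 2338 CPM in home cage libraries. Home cage replicate 3 thus lay above every cKO library. In CFC libraries, set against the same home cage libraries, the medians were -0.68 for the oxidative phosphorylation list and -0.67 for the ribosomal list.

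Lists that stand for what PV cells do showed medians near that of all genes. The 30 voltage-gated potassium channels had a median log2 fold change of 0.09, the 12 sodium channels 0.11, the 17 calcium channels -0.05, the 14 GABA receptor subunits 0.21, the 21 glutamate receptor subunits 0.13, the 31 genes of vesicle release 0.09 and the 33 of synaptic adhesion 0.07, with 0 called in each. Medians do not show the spread to either side. An unadjusted p under 0.05 was found for 3 positive and 7 negative adhesion genes, beside 1328 and 1371 of 15150 genes tested. Vesicle release had 4 and 7, and glutamate receptor subunits 5 and 0. DESeq2, with 669 genes called in all, called 0 adhesion genes higher and 4 lower. Among 10 genes of GABA synthesis, loading and uptake (median 0.24, 0 called) the vesicular GABA transporter Slc32a1 had 121, 155 and 143 CPM in cKO and 163, 207 and 291 CPM in home cage libraries (-0.65 ± 0.19, adjusted p = 0.154). Regulators of mitochondria through PGC-1 and ERR receptors had a median of 0.02 and 0 called of 12. Medians were 0.18 for 16 genes of perineuronal nets, 0.18 for 24 chaperones, 0.12 for 19 clock genes, 0.15 for 14 glucocorticoid targets, 0.04 for 22 enzymes of cholesterol synthesis and -0.15 for 31 proteasome subunits, with 0 called in each. Activity genes were mixed: of 33 rapid ones 17 had positive values (median 0.02, 0 called), and of 35 delayed ones 26 (0.24, 0 called). Fos had 13.4, 44.3 and 10.2 CPM in cKO and 28.9, 17.6 and 36.2 CPM in home cage libraries, which overlapped.

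**Figure D4:**
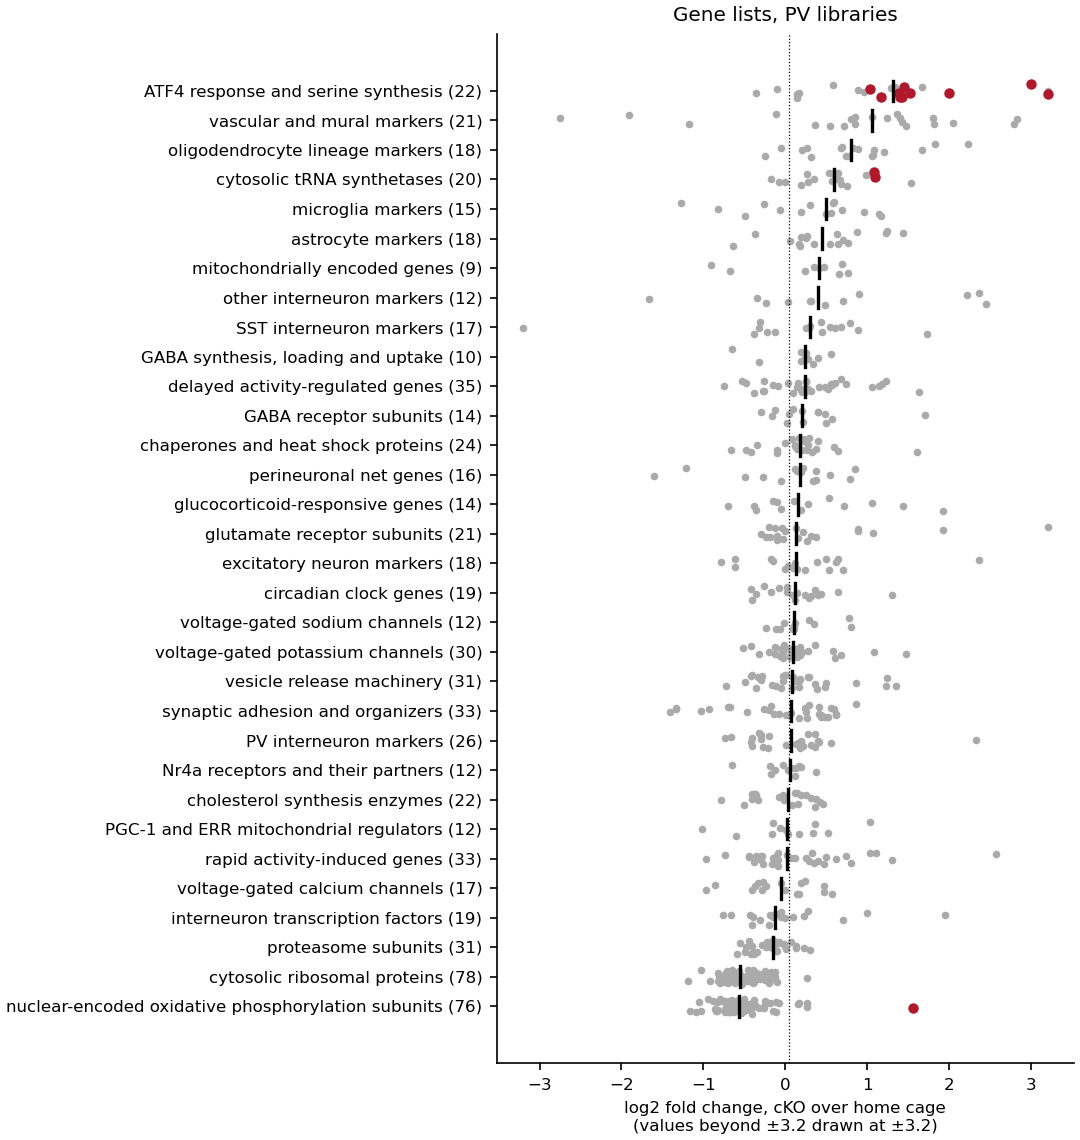
Log2 fold change of Nr4a1 cKO over home cage PV libraries for the tested members of each gene list (number tested in brackets), with values beyond 3.2 in either direction drawn at that limit. Black bars are list medians, the dotted line is the median of all 15150 genes and red points are called genes; the ATF4 and serine list has the highest median, 1.32, and the oxidative phosphorylation list the lowest, -0.56.

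The neighbourhood of the floxed gene was examined on its own. Within 1 Mb of Nr4a1 on chromosome 15, 30 genes were tested and 0 were called, with a median log2 fold change of 0.09. Within 5 Mb, 111 genes were tested and 0 were called, and the median was 0.01. An unadjusted p under 0.05 was found for 3 of the 30 (10%) and for 24 of the 111 (21.6%), beside 17.8% of all genes tested.

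SST libraries with the same floxed allele (genotype Sst:Cre/Nr4a1-f/f/Ribotag, n = 3, batch 5) can be set beside SST home cage libraries (Sst:Cre/Ribotag, n = 3, batch 4), but there every cKO library is of 1 batch and every home cage library of another, so genotype cannot be told apart from batch. In that comparison 1252 of 15453 genes were called (8.1%), 543 higher (3.51%) and 709 lower (4.59%), and of the 22 genes of the ATF4 and serine list 6 were called higher and 0 lower (median 0.72). Mthfd2 had a log2 fold change of 1.40 ± 0.21 (adjusted p = 0.00359) in SST, beside 1.45 in PV libraries. Asns had 0.71 ± 0.12 (adjusted p = 0.00589), Psat1 0.86 ± 0.19 (adjusted p = 0.0188) and Phgdh 0.98 ± 0.38, which missed the threshold (adjusted p = 0.158). Atf4 itself was called in SST libraries, with 116, 145 and 142 CPM in cKO and 87.8, 75.9 and 74.9 CPM in home cage libraries (0.76, adjusted p = 0.00452).

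The difference between the PV and the SST values was tested gene by gene, and 57 of 16452 genes passed (0.346%). Among the 21 genes called in PV libraries, 4 passed: Slc7a3, Vars, Ndufs5 and Fam114a1. Slc7a3 had 39.3, 60.1 and 63.0 CPM in SST cKO and 20.9, 34.3 and 24.3 CPM in SST home cage libraries, a gene with a base level in SST cells where PV home cage libraries had none. Slc7a11 also differed, by -3.71 (adjusted p = 0.017): SST cKO libraries had 31.7, 33.9 and 31.6 CPM and SST home cage libraries 1.81, 6.19 and 1.88 CPM, while its PV values, given above, overlapped. For Psat1 the difference of 1.09 (adjusted p = 0.0672) and for Phgdh that of 1.96 (adjusted p = 0.0931) missed the threshold. For Mthfd2 it was 0.01 (adjusted p = 1).

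**Figure D5:**
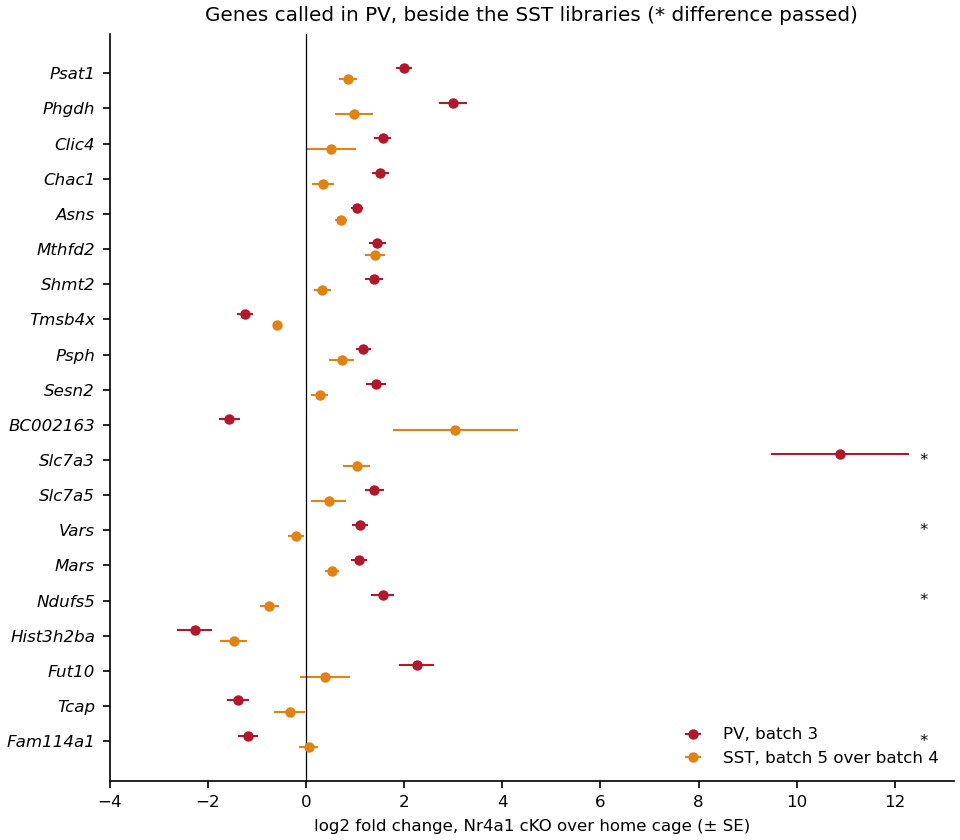
Log2 fold change (point) and SE (bar) of Nr4a1 cKO over home cage for 20 of the 21 genes called in PV libraries (Gm20305, with 0 counts in PV cKO, is left out), in PV (red) and in SST libraries (orange), where genotype cannot be told apart from batch. An asterisk marks Slc7a3, Vars, Ndufs5 and Fam114a1, whose difference passed; serine and one-carbon genes are positive in both.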

How the data were processed

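Tables deposited for batches 3 to 5 hold raw counts of reads per gene as whole numbers, not normalized. Per the submitters' processing notes STAR 2.5.2a, cutadapt 1.18, DESeq2 and HTSeq 0.11.0 were used, and mm10 and GRCm39 are named as builds, all with no stated role or order. Use of strand was not given in the sources used here, so overlapping antisense genes cannot be told apart. Groups and replicates came from sample titles and genotype labels, and 0 columns were left unused. Of 53465 genes listed, 15150 passed filterByExpr of edgeR 4.0.16 (R 4.3.3). The quasi-likelihood F test was run two-sided with robust dispersion, TMM scaling and Benjamini-Hochberg adjustment at 0.05 on all 9 PV libraries of batch 3, which shared 1 estimate of the spread. SE was taken as the size of the log2 fold change over the square root of F. SST libraries were fitted apart (9) and with PV libraries (18) for the difference. CPM are TMM-scaled within each fit. The 18 alternatives included DESeq2 1.42.0 and limma 3.58.1. Totals per library ran from 10096035 to 27282912 in batch 3; floors, like all depths here, cover counting error alone because the reads have no molecular tags. Between replicates, chi-square per degree of freedom was at least 6.18, so no library was counted as a duplicate. Positions come from GENCODE M21 (GRCm38), matched by gene ID for 53274 of 53465, and promoters from RefSeq (GRCm38.p6), matched by symbol or synonym. Named were the Nr4a genes, Rpl22, Pvalb, Sst, every called gene, and for each list as many as 4 called members or else as many as 3 of lowest p. The 20 genes just outside the threshold, Syt2, Kcnc1, Fos, Uqcr10 and the uncalled members of the ATF4 and tRNA synthetase lists fall outside this rule and were chosen after their values were seen. The genes and lists were chosen with earlier results of these data known.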

Additional observations from a re-analysis of the deposited data

Results flagged for a closer look

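The test of the difference between PV and SST values (edgeR, adjusted p under 0.05) passed 57 genes, and 12 of them are listed here. All 12 are among the genes named by the rule above. Slc7a11 passed as well but falls outside that rule. On the SST side genotype cannot be told apart from batch. Slc7a3 differed by 9.89 on the log2 scale, a fitted value that rests on 0 counts in PV home cage libraries. Vars differed by 1.26 and Ndufs5 by 2.26, with positive values in PV and negative ones in SST libraries, and Fam114a1 by -1.27. The oligodendrocyte gene Cnp (1.64), the astrocyte gene Acsbg1 (2.21), the glutamate transporter gene Slc17a7 (1.25) and the neuropeptide precursor gene Vgf (1.02) were positive in PV and negative in SST libraries, none of them called in PV libraries. The same held for mt-Co1 (2.39), mt-Cytb (2.48) and the sterol regulator Srebf2 (0.931), and the reverse for the proteasome subunit gene Psmd11 (-0.919).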

How the results depend on the processing

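In the libraries labelled cKO, 15 genes were called higher and 6 lower. DESeq2 called 267 and 402, a fit without a filter on low counts 600 and 472, and a fit of the 6 compared libraries alone 8 and 2. Leaving out 1 library gave 7 to 588 higher and 0 to 636 lower genes, with the highest counts without home cage replicate 1; the cause was not tested. The other settings gave 16 to 21 higher and 4 to 7 lower. For SST cKO, DESeq2 called 2126 genes and single libraries left out gave 412 to 1292, against 1252. For the PV minus SST difference DESeq2 called 402 and single libraries left out gave 17 to 133, against 57. For PV CFC, DESeq2 called 745, and single libraries left out gave 0 to 1481, against 0. Signs turned only in genes that were not called, apart from Ndufs5. The mitochondrial rRNA gene mt-Rnr1, Nr4a3, the nuclear RNA Malat1 and Sst turned positive without home cage replicate 3. Against home cage and CFC together, Nr4a1 was -1.08, Rxrb -0.00338, Sst 0.018 and Nr4a2 -0.15. With single libraries left out, values ran from -0.14 (without cKO replicate 2) to 0.72 in Nr4a1, from -0.37 (without home cage replicate 2) to 0.50 in Nr4a2, which was also -0.24 without cKO replicate 3, from -0.99 to 0.26 in Nr4a3, from -1.05 to 0.33 in Sst, from -1.19 to 0.55 in Malat1 and from -1.30 to 0.25 in mt-Rnr1. Ndufs5 was -0.67 when summed with BC002163, a setting chosen after seeing the data. Same-numbered cKO and home cage replicates correlated in their deviations at 0.35, -0.06 and 0.09, and those of unlike number at -0.24 to 0.11. Not every sample correlated best with its own number. So few libraries cannot decide whether the numbers pair the samples. With the replicate number as a block, 20 genes were called higher and 7 lower in PV cKO, 859 in SST cKO, 53 for the difference and 2 in PV CFC. Depth was lowest in home cage replicate 3.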
